A study of Mus musculus with 8 samples.

Results

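Solute carriers are a large group of membrane transporters, and the genes described here are the 130 solute carrier genes that were expressed in at least 1 of 4 sorted progenitor populations of mouse bone marrow. A gene was taken where its symbol began with Slc and a digit and its level reached 5 RPKM (reads scaled to the length of the transcript and the size of the library) in both libraries of at least 1 population. The members were therefore chosen by their measured levels in these same libraries, and their presence above that limit is a description. The tables held 355 symbols of this kind among 22878 genes, of which 225 did not reach the limit and 80 had no read in any library. For comparison, 8410 genes of any family reached the same level. Nearest to the limit from above, by the lower library of the best population, were Slc25a35 at 5.12, Slc9a3r2 at 5.16 and Slc39a10 at 5.2 RPKM. Just below it were Slc25a42 at 4.96, Slc27a2 at 4.9956 and Slc6a20a at 4.9992 RPKM. All 130 members passed the filter on low counts and were tested.

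Solute carriers move small molecules across membranes as uniporters, symporters or antiporters, without hydrolysing ATP themselves. Carriers at the cell surface bring in sugars, amino acids, nucleosides, vitamins and metals, while others sit in lysosomes, the Golgi apparatus or the inner mitochondrial membrane. Proliferating lymphoid cells are known for taking up glutamine, leucine and glucose through a small set of such carriers. Cells of the red lineage rely on another set that supplies iron and glycine for heme synthesis and exchanges chloride for bicarbonate at the surface.

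RNA-seq had been carried out on 2 libraries from each population, all sorted from the marrow of C57BL/6 mice. Common lymphoid progenitors (CLP) were lineage-negative and carried CD127, Flt3, Sca-1 and Kit without integrin α4β7. Common helper-like innate lymphoid progenitors (ChILP) carried CD127, integrin α4β7 and Kit without Flt3 or ST2, and are the source of innate lymphoid cells (ILC), which act without rearranged antigen receptors. PD-1+ cells were the PD-1-positive, CCR6-negative fraction of that gate, labelled as progenitors of ILC other than lymphoid tissue inducer (LTi) cells. CCR6+ cells were its CCR6-positive, PD-1-negative fraction, labelled as LTi progenitors. CLP and ChILP had been enriched by depleting lineage-positive cells and are called the depleted pair below, whereas PD-1+ and CCR6+ cells had been enriched by magnetic capture of integrin α4β7-positive cells and are called the captured pair. No genetic change or treatment is named in the labels, and whether the libraries of a population came from separate animals is not stated there, so the p-values measure the spread between these libraries, which may be technical.

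Reads over genes ranged from 7685188 to 13997897 per library. Of the 13 gate and group markers, Flt3 read 92.1 and 157 RPKM in CLP, 10.3 and 5.1 in ChILP, 6.55 and 5.54 in PD-1+ cells, and 7.98 and 6.7 in CCR6+ cells, and Gata3, the transcription factor named in the study's title, read 1.86 and 2.74 RPKM in CLP, 51.1 and 117 in ChILP, 316 and 62.8 in PD-1+ cells, and 10.8 and 12 in CCR6+ cells. Pdcd1, which encodes PD-1, read 0.823 and 0.319 RPKM in CLP, 70.9 and 92.8 in ChILP, 181 and 36.3 in PD-1+ cells, and 0 and 1.1 in CCR6+ cells. Ccr6 read 0 and 0 RPKM in CLP, 3.84 and 8.21 in ChILP, 0 and 8.11 in PD-1+ cells, and 84.2 and 23.6 in CCR6+ cells. The second PD-1+ library thus carried Ccr6 and less Pdcd1 and Gata3 than the first, and fold changes between PD-1+ and CCR6+ cells are given with and without it. Values without it rest on 1 PD-1+ library and are not better estimates. The second CCR6+ library likewise held less Ccr6 than the first, and fold changes of single genes without it are not given. Kit read 28.5 and 31.5 RPKM in CLP, 33.3 and 42 in ChILP, 29.1 and 8.21 in PD-1+ cells, and 17.5 and 6.93 in CCR6+ cells, and Il7r, which encodes CD127, read 26.9 and 33.7 RPKM in CLP, 19.2 and 35.4 in ChILP, 45.2 and 13.5 in PD-1+ cells, and 27.5 and 12.2 in CCR6+ cells. Both were lower in the second than in the first library of PD-1+ and of CCR6+ cells. Ly6a encodes Sca-1, a marker of the CLP gate, yet was not highest there. Its levels were 30.1 and 31.4 RPKM in CLP against 4.89 and 10.6 in ChILP. The PD-1+ libraries held 39.6 and 62.4 RPKM of it, the CCR6+ libraries 95 and 72.4. Itgb7, of integrin α4β7, was present in CLP (40.4 and 29.2 RPKM), which were gated without that integrin. Itgb7 reached 67.5 and 71.3 RPKM in ChILP, 187 and 200 for PD-1+, 174 and 237 for CCR6+. Transcripts of the red and myeloid lineages were present in each library. A list of 7 red lineage genes summed to 5802 and 2186 RPKM in CLP, 7946 and 2243 in ChILP, 28926 and 33715 in PD-1+ cells, and 41899.9 and 34309.5 in CCR6+ cells. A list of 8 neutrophil and myeloid genes summed to 10199.6 and 6555 RPKM in CLP, 13899.6 and 7527 in ChILP, 16108 and 32465 in PD-1+ cells, and 21833 and 35037 in CCR6+ cells. A few genes made up much of the lower sums, so the sums do not measure mature cells alone. In the second CLP library Elane and Mpo, the latter of early myeloid cells, read 2323 and 3121 RPKM. In the second ChILP library they read 2776 and 3380 RPKM, and both genes were lower in the captured pair. Car2, of the red lineage list, read 1195 and 1159 RPKM in those libraries. In bulk libraries, fewer cells of a type and less RNA per cell cannot be told apart.

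The 250 bases before the start of 3 members described below are shown. Slc11a1 (NM_013612) was among the largest rises in the captured pair, and Slc25a1 (NM_153150) and Slc35d3 (NM_029529) read highest in CLP. Slc11a1 encodes a phagosomal divalent metal transporter, Slc25a1 the mitochondrial citrate carrier, and Slc35d3 a member of the nucleotide sugar transporter family that platelet dense granules require. The sequences come from RefSeq on GRCm38.p6, run 5′ to 3′ on the strand of the gene, and carry in capitals the letters CCAAT and GGGCGG (the CCAAT box and the GC box) on either strand. The windows are chr1:74374953-74375202 on the plus strand, chr16:17928220-17928469 on the minus strand and chr10:19851460-19851709 on the minus strand.
Slc11a1: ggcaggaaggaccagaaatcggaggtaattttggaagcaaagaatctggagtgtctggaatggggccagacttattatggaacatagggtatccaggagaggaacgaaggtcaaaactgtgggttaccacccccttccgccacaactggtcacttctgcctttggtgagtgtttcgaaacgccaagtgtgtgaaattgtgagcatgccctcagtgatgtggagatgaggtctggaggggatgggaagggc
Slc25a1: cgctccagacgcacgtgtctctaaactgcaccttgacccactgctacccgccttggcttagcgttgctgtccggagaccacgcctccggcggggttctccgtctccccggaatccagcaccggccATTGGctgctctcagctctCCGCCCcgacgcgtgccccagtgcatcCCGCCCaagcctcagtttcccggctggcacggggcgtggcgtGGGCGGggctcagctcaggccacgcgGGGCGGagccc
Slc35d3: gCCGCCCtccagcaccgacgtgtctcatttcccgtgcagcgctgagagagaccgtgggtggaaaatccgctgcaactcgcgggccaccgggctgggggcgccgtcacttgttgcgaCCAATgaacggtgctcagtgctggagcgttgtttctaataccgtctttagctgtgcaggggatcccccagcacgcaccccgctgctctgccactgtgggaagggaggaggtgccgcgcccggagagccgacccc
Slc25a1 held 4 GC boxes and 1 CCAAT box, Slc35d3 held 1 of each, and Slc11a1 held neither. The promoter table had entries for 98 members with 138 starts. GGGCGG lay in 56.5% of these member windows and in 32.7% of all 32851 windows, and CCAAT in 31.2% and 33.8%. The letters AGATAA or TGATAA, which GATA factors can bind, lay in 13.8% of the member windows and 16.6% of all windows, and in none of the 3 shown. Such matches are a description of the sequence, and all windows include those of genes not expressed here. The table had no entry for Slc4a1 or Slc25a37.

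Members at the level numbered 108 in CLP, 108 in ChILP, 89 in PD-1+ and 91 in CCR6+ cells, and 72 of the 130 reached it in all 4 populations. A further 22 reached it in 1 population: 6 in CLP, 8 in ChILP, 4 in PD-1+ and 4 in CCR6+ cells. The summed level of the 130 genes was close in the 8 libraries, from 3628 to 4027 RPKM. It was uneven among genes, since the 10 most abundant members made up 43.7% of it, the median member had a mean of 12.7 RPKM and 8 members had a mean of at least 100 RPKM. The spread between libraries was wider in the captured pair: 12 members in CLP and 14 in ChILP lay at least 2-fold apart between the libraries, against 27 in PD-1+ and 25 in CCR6+ cells.

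**Figure D1:**
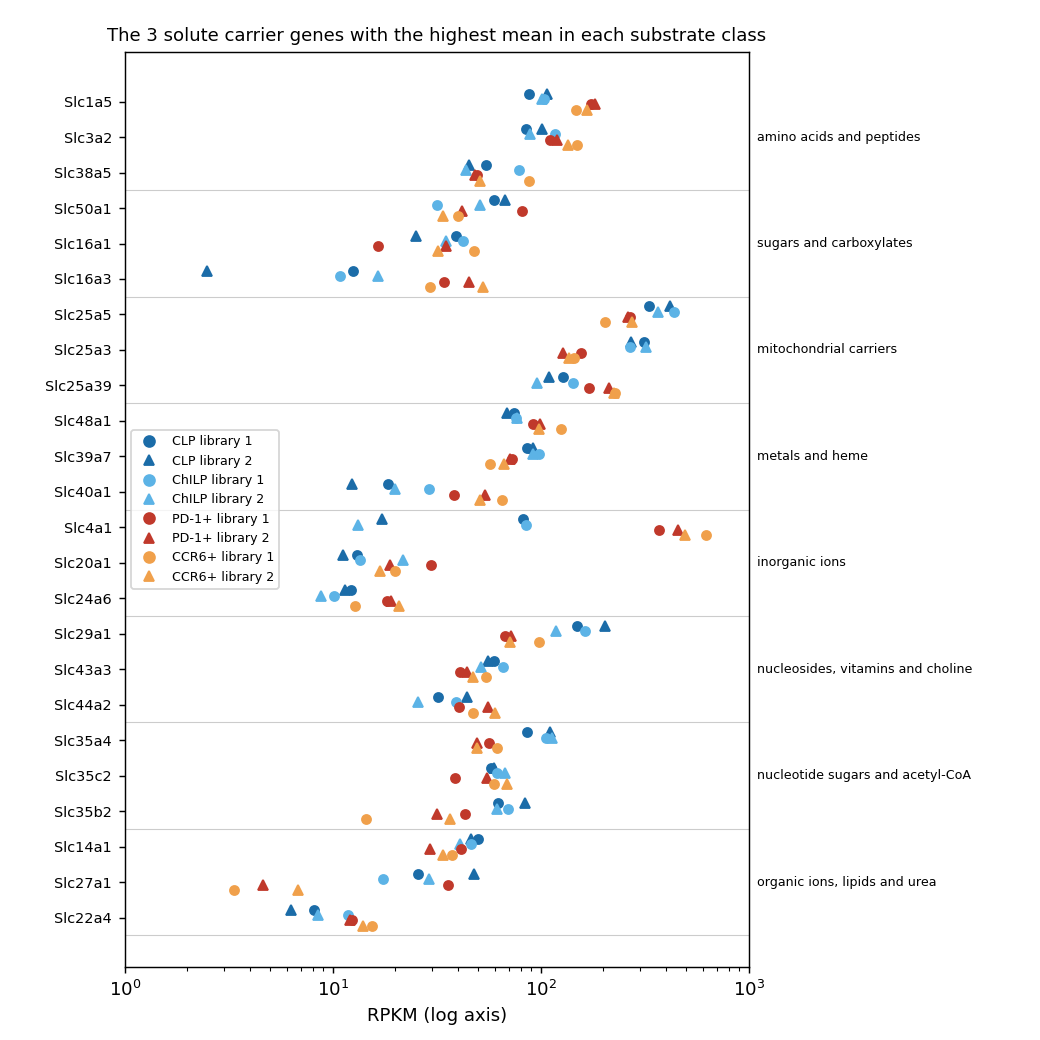
Level in RPKM (log axis) of the 3 members with the highest mean in each substrate class, 1 point per library (colour, population; circle, library 1; triangle, library 2). Mitochondrial carriers Slc25a5 and Slc25a3 lie highest in the depleted pair, and Slc4a1 lies highest in the captured pair.

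By substrate, assigned from textbook knowledge of the families, the members comprised 27 mitochondrial carriers (family Slc25), 21 carriers of metals or heme, 20 of amino acids or peptides, 14 of nucleotide sugars or acetyl-CoA, 13 of sugars or carboxylates, 12 of inorganic ions, 7 of nucleosides, vitamins or choline and 7 of organic ions, lipids or urea. A further 5 have no assigned function here, and 4 carry an Slc symbol without being transporters (Slc9a3r1, Slc9a3r2, Slc4a1ap and Slc7a6os). Mitochondrial carriers held the largest summed level in each library, with 1448 and 1661 RPKM in CLP, 1529 and 1502 in ChILP, 1199 and 1187 in PD-1+ cells, and 1166 and 1246 in CCR6+ cells. The member with the highest mean, Slc25a5, an ADP/ATP translocase, read 331 and 419 RPKM in CLP, 436 and 365 in ChILP, 267 and 263 in PD-1+ cells, and 203 and 274 in CCR6+ cells. Slc25a3, the mitochondrial phosphate carrier, read 313 and 270.4 RPKM in CLP, 269 and 321 in ChILP, 155 and 128 in PD-1+ cells, and 145 and 137 in CCR6+ cells. For both genes each library of the depleted pair lay above each library of the captured pair.

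Inorganic ion carriers differed the most between the pairs in summed level, with 180.4 and 104 RPKM in CLP, 174 and 120.0 in ChILP, 478 and 554 in PD-1+ cells, and 715 and 589 in CCR6+ cells. In the captured pair most of that sum was Slc4a1 (NM_011403), the chloride/bicarbonate exchanger band 3 of the red cell membrane, which read 82.4 and 17.2 RPKM in CLP, 85.2 and 13.2 in ChILP, 369.5 and 455 in PD-1+ cells, and 622 and 496 in CCR6+ cells. Amino acid and peptide carriers summed to 494 and 513 RPKM in CLP, 562 and 480.4 in ChILP, 646 and 642 in PD-1+ cells, and 736 and 663 in CCR6+ cells. Nucleotide sugar carriers, which load the Golgi apparatus and endoplasmic reticulum, summed to 384 and 441 RPKM in CLP, 413 and 405 in ChILP, 249 and 255 in PD-1+ cells, and 243 and 286 in CCR6+ cells. The order of the pairs was opposite for these classes: captured above depleted for amino acids, depleted above captured for nucleotide sugars, with no overlap of libraries in either. Metal carriers, 417 and 442 RPKM in CLP, 412 and 396 in ChILP, 385 and 437 in PD-1+ cells, and 462 and 443 in CCR6+ cells, and sugar carriers, 209 and 208 RPKM in CLP, 209 and 202 in ChILP, 221 and 257 in PD-1+ cells, and 217 and 261 in CCR6+ cells, were closer. Sugar carriers did not overlap between the pairs either, with the captured libraries higher, while metal carriers did overlap. Nucleoside, vitamin and choline carriers summed to 279 RPKM or more in the depleted libraries and 253 RPKM or less in the captured ones. Sums of RPKM follow the most abundant genes of a class, and they were not tested.

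**Figure D2:**
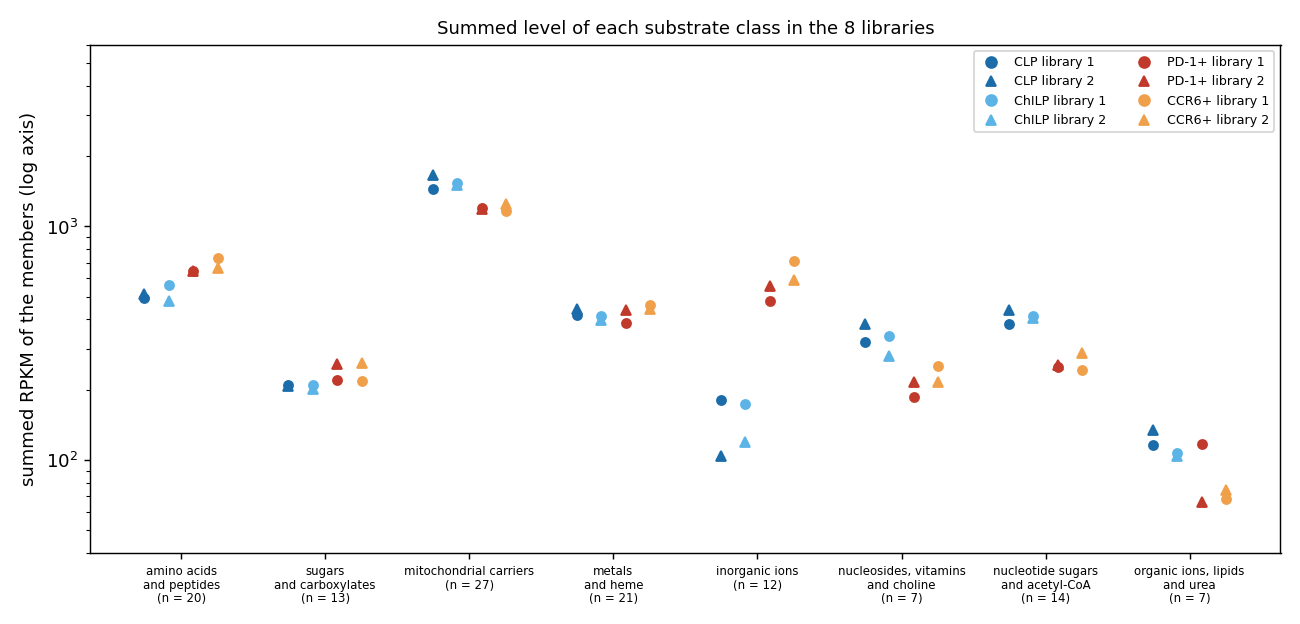
Summed RPKM (log axis) of the members of each substrate class, 1 point per library. The inorganic ion class is at most at 180.4 RPKM in CLP and ChILP and at least at 478 RPKM in PD-1+ and CCR6+ cells, while the mitochondrial class lies highest in each library.

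Glucose and lactate carriers were present at moderate levels in each population. Slc2a1, the basal glucose transporter, read 9.85 and 19 RPKM in CLP, 13.5 and 13.6 in ChILP, 11.6 and 21.6 in PD-1+ cells, and 9.49 and 11.5 in CCR6+ cells. Slc2a3, a high-affinity glucose transporter, read 13.4 and 8.35 RPKM in CLP, 35.4 and 11.9 in ChILP, 9.07 and 22.7 in PD-1+ cells, and 7.49 and 22.3 in CCR6+ cells, with wide gaps between the libraries of ChILP, PD-1+ and CCR6+ cells. Slc16a1, the lactate and pyruvate carrier MCT1, read 39.3 and 25 RPKM in CLP, 42.1 and 34.9 in ChILP, 16.4 and 35.1 in PD-1+ cells, and 47.9 and 32.1 in CCR6+ cells. For Slc2a3 and Slc16a1 the libraries of all populations overlapped. For Slc2a1 the ChILP and PD-1+ libraries lay above both CCR6+ libraries, narrowly so for PD-1+ cells, and the other populations overlapped. Slc50a1, a sugar efflux carrier of the Golgi apparatus and cell surface, had the highest mean of the class and read 59.6 and 67.6 RPKM in CLP, 31.8 and 51.2 in ChILP, 81.3 and 41.9 in PD-1+ cells, and 40.2 and 33.7 in CCR6+ cells.

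Amino acid carriers were led by Slc1a5 (NM_009201), the glutamine carrier ASCT2, at 88 and 108 RPKM in CLP, 104 and 102 in ChILP, 174 and 183 in PD-1+ cells, and 148 and 166 in CCR6+ cells. Slc3a2, the CD98 heavy chain that brings the light chains of the Slc7 family to the surface, read 84.7 and 101 RPKM in CLP, 117 and 89 in ChILP, 110.4 and 119.9 in PD-1+ cells, and 149.9 and 135 in CCR6+ cells. Its light chain Slc7a5 (LAT1), the leucine carrier, was far lower on the same per-length scale at 15.3 and 19.2 RPKM in CLP, 15.6 and 10.1 in ChILP, 4.95 and 10.3 in PD-1+ cells, and 14.5 and 15 in CCR6+ cells. The libraries of the pairs did not overlap for Slc1a5, while those for Slc3a2 and Slc7a5 did. Slc38a2, a sodium-coupled glutamine and alanine carrier, read 32.8 and 33.1 RPKM in CLP, 34 and 33.9 in ChILP, 18.1 and 22.8 in PD-1+ cells, and 18.9 and 19.6 in CCR6+ cells. Slc7a1, the arginine carrier, read 7.94 and 7.18 RPKM in CLP, 5.14 and 7.4 in ChILP, 4.28 and 3.4 in PD-1+ cells, and 5.89 and 3.82 in CCR6+ cells, with overlapping libraries.

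The comparison of ChILP with CLP addresses what changes on the step from lymphoid to helper-like innate progenitors. No member was called higher or lower in ChILP, with edgeR and an adjusted p (Benjamini-Hochberg over the 13619 genes tested) under 0.05, where 0.00734% of all genes tested were called higher and 0.0147% lower. At an unadjusted p under 0.05, 5 members were higher and 5 lower (3.85% each), against 2.79% and 3.03% of all genes tested, so the share of members was near that of genes at large. The median log2 fold change was 0.06 over the members and 0.05 over all genes tested. Fold changes are fitted on counts with TMM scaling between libraries, so they can differ from ratios of RPKM. A value alone in parentheses after a gene is its log2 fold change.

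The member nearest to a call was Slc35d3, which read 24.5 and 40.5 RPKM in CLP, 5.21 and 5.5 in ChILP, 1.94 and 3.14 in PD-1+ cells, and 1.28 and 2.37 in CCR6+ cells (log2 fold change -2.53, SE 0.44, edgeR adjusted p = 0.10). Both CLP libraries lay above both ChILP libraries, and these in turn above the 4 others. Slc25a1, which exports citrate from mitochondria for lipid synthesis, read 109 and 165 RPKM in CLP, 68.6 and 53.2 in ChILP, 23.7 and 19.9 in PD-1+ cells, and 32 and 33.7 in CCR6+ cells (log2 fold change -1.1, SE 0.22, edgeR adjusted p = 0.168). Its libraries were ordered in the same way, with CLP highest and the captured pair lowest. With the DESeq2 Wald test both were called (adjusted p = 2.54e-05 for Slc35d3 and 0.00181 for Slc25a1), and Slc35d3 was also called with limma on log2(RPKM + 1), without the filter on low counts and with the 4 CLP and ChILP libraries alone (adjusted p = 0.0364, 0.0263 and 0.0384).

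Among the other members with an unadjusted p under 0.05, 3 were lower in ChILP and 5 higher, none of them called. The zinc carrier Slc30a5 read 36 and 44.3 RPKM in CLP and 23.9 and 23.6 in ChILP (log2 fold change -0.70, SE 0.25, edgeR adjusted p = 0.692). Slc39a6, another zinc carrier, read 20.6 and 23.9 RPKM in CLP and 7.74 and 9.21 in ChILP (log2 fold change -1.33, SE 0.47, edgeR adjusted p = 0.692). Slc35a1, the Golgi carrier of CMP-sialic acid, read 13.3 and 19.9 in CLP and 9.69 and 7.85 RPKM in ChILP (log2 fold change -0.85, SE 0.35). Higher in ChILP were Slc6a13, a carrier of GABA and betaine, with 5.26 and 3.24 against 6.37 and 14.7 RPKM (1.35, SE 0.52), and Slc18a2, the vesicular monoamine transporter, with 2.85 and 3.11 against 7.03 and 4.74 RPKM (1.04, SE 0.38). Libraries of the 2 populations did not overlap for any of these 5 genes. Lack of overlap was also part of the rule by which genes were named, and its share over all genes was not counted. Slc25a24, Slc35b1 and Slc7a8 had log2 fold changes of 0.70, 0.71 and 0.86. Among the remaining members whose higher population averaged 5 RPKM or more, the largest differences without overlap were those of Slc25a35 (1.18), Slc39a13 (0.90) and Slc46a3 (0.74) on the higher side and Slc22a17 (-1.24) and Slc25a29 (-1.02) on the lower side. Slc25a35 and Slc39a13 qualified as members through ChILP alone, and Slc22a17 and Slc25a29 through CLP alone. The rule thus partly set the differences of these genes.

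The comparison of PD-1+ with CCR6+ cells asks which genes set apart the progenitors of LTi cells from those of other ILC. No member was called, and no gene of all those tested was (0% called in either direction). Without the second PD-1+ library 1 member was called, and without the second CCR6+ library 0. At an unadjusted p under 0.05, 6 members were higher and 6 lower in PD-1+ cells (4.62% each), against 4.08% and 1.81% of all genes tested. The median log2 fold change was -0.06 over the members and 0.01 over all genes tested.

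Of 21 metal and heme carriers, 1 was higher and 1 lower at an unadjusted p under 0.05. These were Slc39a6 and Slc39a8. Slc39a8, the zinc and manganese carrier ZIP8, read 0.857 and 0.854 RPKM in PD-1+ cells and 6.96 and 1.94 in CCR6+ cells (log2 fold change -2.44, SE 0.58, edgeR adjusted p = 0.662). Slc39a6 read 15.7 and 5.74 RPKM in PD-1+ cells against 2.67 and 5.57 in CCR6+ cells (log2 fold change 1.29, SE 0.48, edgeR adjusted p = 0.814). Slc41a3, a magnesium carrier, read 1.04 and 7.86 RPKM in PD-1+ cells against 11.3 and 10.6 in CCR6+ cells (log2 fold change -1.31, SE 0.77, edgeR adjusted p = 0.85). The first PD-1+ library was the lowest of the 4 for Slc41a3, and without the second one the log2 fold change was -3.53 with an edgeR adjusted p of 0.0453. Slc39a4, an intestinal-type zinc carrier, read 5.25 and 5.28 RPKM in PD-1+ cells and 0.042 and 2.31 in CCR6+ cells, so the 2 CCR6+ libraries differed widely from each other. This gene qualified as a member through PD-1+ cells alone, so its higher values there were partly set by the rule.

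Mitochondrial carrier Slc25a29, which carries basic amino acids, was counted 120 and 165 times in PD-1+ cells and 0 and 7 times in CCR6+ cells, or 4.2 and 5.17 against 0 and 0.245 RPKM (log2 fold change 5.08, SE 1.15, edgeR adjusted p = 0.645). It qualified as a member through CLP, where it read 6.09 and 5.57 RPKM. Slc18a2 read 8.14 and 5.66 RPKM in PD-1+ cells against 2.39 and 2.76 in CCR6+ cells (1.35, SE 0.38), and Slc22a3, an organic cation carrier, read 5.8 and 3.66 against 1.6 and 1.08 RPKM (1.74, SE 0.46). Both carriers of amines thus had higher values in each PD-1+ library, and neither was called. Slc18a2 qualified as a member through PD-1+ cells alone, so its higher values there were partly set by the rule. Slc22a3 qualified through CLP and ChILP. Slc27a1, a fatty acid transport protein, read 35.7 and 4.6 RPKM in PD-1+ cells against 3.35 and 6.78 in CCR6+ cells, with the first PD-1+ library far from the other 3. Its log2 fold change was 1.87 (SE 0.81), and -0.16 without that library.

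Amino acid carriers pointed in both directions. Slc7a5 read 4.95 and 10.3 RPKM in PD-1+ cells against 14.5 and 15 in CCR6+ cells (log2 fold change -0.99, SE 0.40, edgeR adjusted p = 0.83), and Slc7a7, the light chain y+LAT1, read 7.47 and 8.38 against 14.2 and 13.3 (-0.85, SE 0.47). On the PD-1+ side, Slc38a1, a glutamine carrier, read 15.9 and 11 against 7.47 and 8.17 RPKM (0.71, SE 0.21), and Slc7a6, the light chain y+LAT2, read 13.4 and 6.5 against 6.17 and 4.98 (0.75, SE 0.33). The populations did not overlap for these 4 genes. As lack of overlap was also part of the naming rule and its share over all genes was not counted, it is a description. The glucose-6-phosphate carrier of the endoplasmic reticulum, Slc37a4, read 6.37 and 6.02 against 14.2 and 9.87 RPKM (-1.02, SE 0.33), and its relative Slc37a2 read 1.64 and 5.65 against 5.9 and 7.47 (-0.90, SE 0.60). Without the second PD-1+ library the log2 fold changes were -1.71 for Slc7a5, -1.01 for Slc7a7, 1.13 for Slc7a6, -1.05 for Slc37a4, -2.16 for Slc37a2, 1.8 for Slc39a6, 2.01 for Slc39a4 and 1.53 for Slc18a2, each in the same direction. Also at an unadjusted p under 0.05 were Slc25a12 (-0.75), Slc25a1 (-0.66) and Slc16a6 (-0.81), lower in PD-1+ cells. Slc6a13 (0.82) and Slc10a7 (0.73) on the higher side and Slc25a28 (-0.98) on the lower side were among the largest differences without overlap. Slc25a28 and Slc37a2 qualified as members through CCR6+ cells alone, so the rule partly set their differences. Without the second PD-1+ library the values were -0.87 for Slc25a12, -0.61 for Slc25a1, -1.12 for Slc16a6, 0.995 for Slc6a13, 1.14 for Slc10a7 and -1.41 for Slc25a28, and further -2.51 for Slc39a8, 4.84 for Slc25a29, 1.98 for Slc22a3, 0.89 for Slc38a1 and 2.68 for Slc27a1. With DESeq2, Slc25a29 (adjusted p = 5.21e-05) and Slc39a8 (adjusted p = 0.0105) were called.

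**Figure D3:**
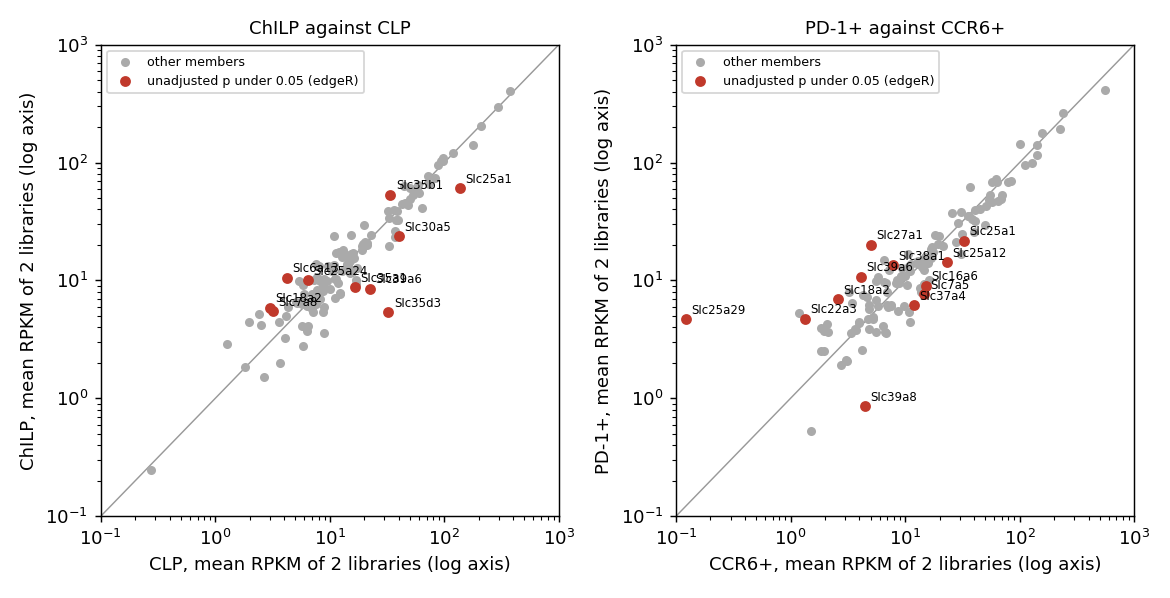
Mean RPKM of each member in ChILP against CLP (left) and in PD-1+ against CCR6+ cells (right), on log axes, with the line of equal levels. Members with an unadjusted edgeR p under 0.05 are named; no member was called in either comparison, and Slc35d3 and Slc25a29 lie far from the line.

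The captured pair was set against the depleted pair to place the 4 populations side by side. The cell populations and the route of enrichment cannot be told apart in this contrast. Of the 130 members 41 were called, 26 higher in the captured pair (20% of members, against 11.4% of all genes tested and 16.4% of the 8400 tested genes at the same level) and 15 lower (11.5%, against 10.5% and 15.8%). At an unadjusted p under 0.05 the counts were 33 higher and 27 lower, where 17.1% and 18.1% of all genes tested stood. The shares of members were thus near those of other genes at their level. Some members reached the level in 1 pair alone. Of those called, Slc11a1, Slc15a3, Slc6a9, Slc7a7, Slc7a8, Slc2a4 and Slc35e4 reached it only in the captured pair. Slc39a8, Slc7a4, Slc22a3 and Slc35d3 reached it only in the depleted pair. The rule of membership thus partly set their direction and the counts of their classes. Among the 72 at the level in all 4 populations, 16 were called higher and 10 lower. The median log2 fold change was -0.11 over the members and -0.08 over all genes tested. With limma on log2(RPKM + 1), which leaves out the TMM scaling and moves the median of all genes to -0.30, the split was 20 higher and 36 lower. With PD-1+ and CCR6+ cells taken from their first libraries alone, an alternative chosen after seeing the data, it was 17 higher and 19 lower. None of the 41 changed direction in any alternative tried.

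Of 21 metal and heme carriers, 4 were called higher and 2 lower, with a class median of -0.27, where 16.4% and 15.8% of genes at the same level were called. Slc11a1 reached the level for membership only in the captured pair and Slc39a8 only in the depleted pair, so the rule partly set these counts. Slc11a1, of that class, read 2.92 and 0.682 RPKM in CLP, 2.8 and 0.90 in ChILP, 26.8 and 32.4 in PD-1+ cells, and 53.2 and 46.6 in CCR6+ cells (log2 fold change 4.67, SE 0.54, edgeR adjusted p = 0.00193), and the 4 captured libraries lay far above the 4 others. Slc25a37 (NM_026331), mitoferrin 1, which brings iron into mitochondria, read 26.4 and 12.2 RPKM in CLP, 29 and 10.5 in ChILP, 86.7 and 112 in PD-1+ cells, and 142 and 114 in CCR6+ cells (log2 fold change 2.8, SE 0.39, edgeR adjusted p = 0.00311). Slc40a1, the iron exporter ferroportin and again a metal carrier, read 18.4 and 12.3 RPKM in CLP, 28.9 and 19.9 in ChILP, 38.1 and 53.9 in PD-1+ cells, and 65.2 and 50.8 in CCR6+ cells (log2 fold change 1.69, SE 0.24, edgeR adjusted p = 0.00326). Each of these genes was called in all 8 fits that left out 1 library. Slc48a1, the heme carrier HRG1, had a log2 fold change of 0.76 and its exons overlap those of Hdac7 on the opposite strand, so its reads are uncertain. The iron importer Slc11a2 (DMT1) was not called, with 21.7 and 17.3 RPKM in CLP, 23.3 and 17.4 in ChILP, 14 and 20.8 in PD-1+ cells, and 16.2 and 18.9 in CCR6+ cells (log2 fold change 0.09, SE 0.22, edgeR adjusted p = 0.812). Slc25a28, the mitoferrin of other tissues, read between 2.27 and 8.42 RPKM and was not called (0.89, SE 0.45).

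Slc4a1, of the inorganic ion class, was called higher (log2 fold change 3.54, SE 0.69, edgeR adjusted p = 0.010). Slc6a9 (NM_008135), the glycine transporter GlyT1, read 7.57 and 0.543 RPKM in CLP, 4.72 and 1.72 in ChILP, 35.1 and 28.6 in PD-1+ cells, and 50.8 and 30.8 in CCR6+ cells (log2 fold change 3.57, SE 0.73, edgeR adjusted p = 0.012), and its exons overlap those of B4galt2 and Ccdc24 on the opposite strand. Without the filter on low counts, adjusted p was 0.0673 for Slc4a1 and 0.07 for Slc6a9. Slc25a38, which carries glycine into mitochondria for heme synthesis, rose by 0.75 on the log2 scale (edgeR adjusted p = 0.0213), and Slc25a39, the mitochondrial importer of glutathione, by 1.08 (edgeR adjusted p = 0.00598).

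Red lineage and myeloid transcripts moved with these carriers. Of 7 red lineage genes measured, 5 were called higher in the captured pair, led by Hba-a1, an alpha-globin gene, at 3112 and 548 RPKM in CLP, 4547 and 566 in ChILP, 21938 and 25445 in PD-1+ cells, and 30607 and 25599 in CCR6+ cells (log2 fold change 3.83, SE 0.76, edgeR adjusted p = 0.0109), which has a near-identical copy, so that its level is uncertain, while Klf1 and Car2 were not called (0.26 and 0.47). Of 8 neutrophil and myeloid genes, 5 were called higher and 2 lower. Lyz2, the lysozyme of myeloid cells, read 866 and 356 RPKM in CLP, 1186 and 490.3 in ChILP, 6387 and 12901 in PD-1+ cells, and 9770.3 and 14677 in CCR6+ cells (log2 fold change 4.19, SE 0.48, edgeR adjusted p = 0.00193), whereas Mpo, an enzyme of early granule-forming myeloid cells, read 2816 and 3121 RPKM in CLP, 4218 and 3380.1 in ChILP, 201 and 440.0 in PD-1+ cells, and 328 and 529.8 in CCR6+ cells (log2 fold change -2.89, SE 0.30, edgeR adjusted p = 0.00162). The B lineage list had 3 of 6 genes called higher and the plasma cell list 1 of 4. None of the 15 red lineage and myeloid markers measured was at 0 in any library.

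Libraries of 1 population also differed in these transcripts. In CLP and ChILP, the first library held more Hba-a1 than the second, and Slc4a1, Slc25a37, Slc6a9, Slc11a1 and Slc15a3 did too. Of the 26 members called higher, 19 were higher in the first library than in the second in CLP and 19 in ChILP, against 41 and 39 of the 89 members not called. Of the 15 called lower, 3 in CLP and 9 in ChILP were higher in the first library. In PD-1+ and CCR6+ cells, 8 and 17 of the 26 were higher in the first library, against 44 and 31 of the 89 not called. Hba-a1 was lower in the first than in the second PD-1+ library and higher in the first CCR6+ library. Of the 5 carriers named, Slc6a9 had the opposite order to Hba-a1 in PD-1+ cells, and the others had its order in both populations. The part of these transcripts in the carrier results, for the classes above and those that follow, was not tested.

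**Figure D4:**
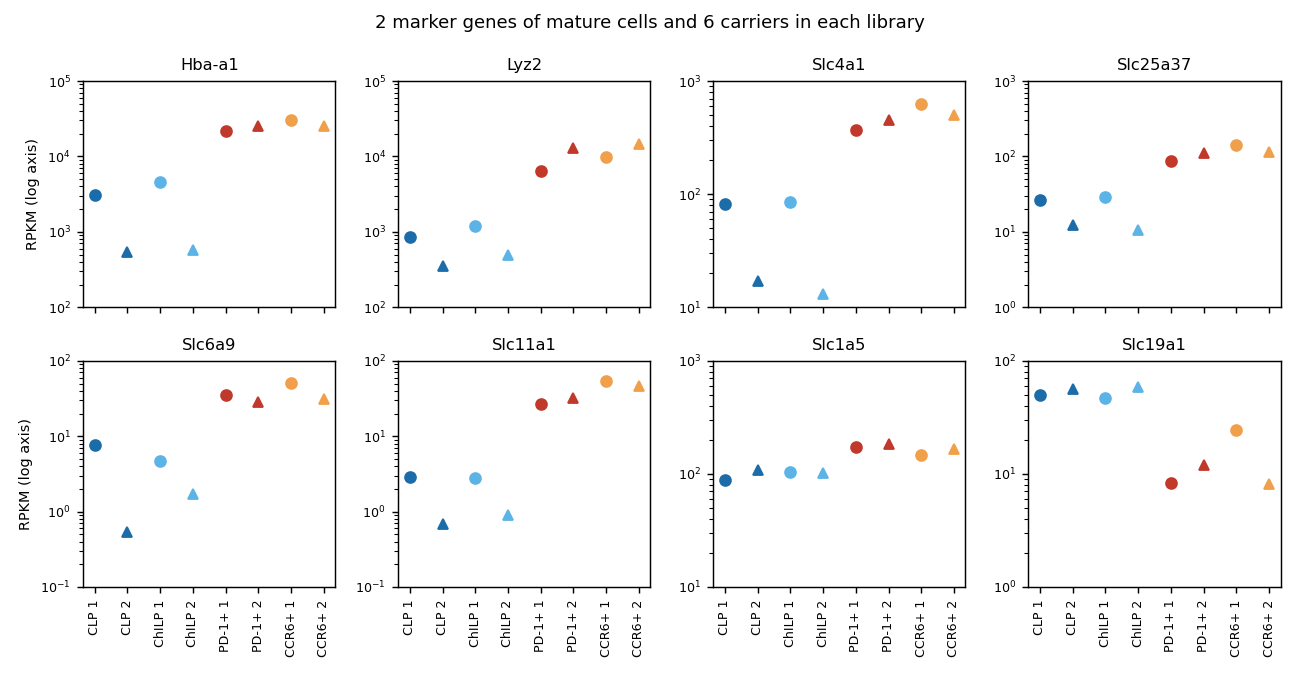
RPKM (log axes, with a different range per panel) in each library of Hba-a1 and Lyz2, transcripts of mature cells, and of 6 members. Slc4a1, Slc25a37, Slc6a9 and Slc11a1 are higher in the first than in the second library of CLP and ChILP, as Hba-a1 is, while Slc1a5 is flat there and Slc19a1 is lower in the captured pair.

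Amino acid carriers were called in 12 of 20 cases, 9 higher and 3 lower, with a class median of 0.58, against 16.4% higher and 15.8% lower of genes at the same level. Of those called higher, Slc15a3, Slc6a9, Slc7a7 and Slc7a8 reached the level for membership only in the captured pair. The rule of membership thus partly set this count and median. Slc1a5 rose by 1.02 (SE 0.12, edgeR adjusted p = 0.00207), and it read 88 and 108 RPKM in the first and second libraries of CLP and 104 and 102 in those of ChILP. Slc15a3 (NM_023044), a lysosomal carrier of histidine and peptides, read 0.518 and 0.0291 RPKM in CLP, 0.467 and 0.0276 in ChILP, 4.75 and 7.19 in PD-1+ cells, and 7.82 and 6.44 in CCR6+ cells (log2 fold change 4.91, SE 0.97, edgeR adjusted p = 0.0107), from 13, 1, 20 and 1 reads in the depleted pair, and its exons overlap those of Tmem132a. Light chains moved apart: Slc7a7 (1.66) and Slc7a8 (1.36) rose with the heavy chain Slc3a2 (0.67), Slc7a6 fell (-0.83), and Slc7a5 was not called (-0.20, SE 0.28). Uncoupled carriers of large neutral and aromatic amino acids rose, with 1.13 for Slc16a10, 0.93 for Slc43a1 and 0.97 for Slc43a2. The sodium-coupled carriers Slc38a1 (-0.76) and Slc38a2 (-0.47) fell, the latter with an edgeR adjusted p of 0.0497. Slc38a5, of the same family, was not called (0.35). Slc7a7 shares exon sequence with Oxa1l on the opposite strand.

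Sugar and carboxylate carriers gave 3 higher calls of 13 and none lower, with a median of 0.16, against the same 16.4% and 15.8%. Of the 3, Slc2a4 reached the level for membership only in CCR6+ cells, so the rule partly set this count. Slc16a3, the lactate exporter MCT4, read 12.6 and 2.49 RPKM in CLP, 10.8 and 16.5 in ChILP, 34.1 and 45 in PD-1+ cells, and 29.5 and 52.9 in CCR6+ cells (log2 fold change 2.25, SE 0.49, edgeR adjusted p = 0.0158). Slc2a6, a lysosomal hexose carrier, read 11 and 11.1 RPKM in CLP, 10.6 and 3.7 in ChILP, 20.9 and 46 in PD-1+ cells, and 26.5 and 49.7 in CCR6+ cells (log2 fold change 2.29, SE 0.42, edgeR adjusted p = 0.00817). Slc2a4, the insulin-responsive glucose carrier GLUT4, read 1.72 and 0.799 RPKM in CLP, 3.26 and 2.48 in ChILP, 4.49 and 7.92 in PD-1+ cells, and 8.45 and 6.61 in CCR6+ cells (log2 fold change 2.12, SE 0.41, edgeR adjusted p = 0.00966) and so stayed low throughout. The captured libraries lay above the depleted ones for all 3. The main glucose carriers were not called, with 0.21 for Slc2a1 (SE 0.29) and 0.22 for Slc2a3 (SE 0.50), nor was Slc16a1 (0.15).

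Mitochondrial carriers gave 4 calls in each direction among 27, with a median of -0.35, which is near the 16.4% and 15.8% of genes at the same level. Slc25a1 fell the most of those called (log2 fold change -1.49, SE 0.16, edgeR adjusted p = 0.00171), followed by Slc25a3 (log2 fold change -0.78, SE 0.14, edgeR adjusted p = 0.00698). Slc25a12, the aspartate-glutamate carrier, fell (-0.70), as did Slc25a17, a peroxisomal member of the family (-0.72). Slc25a24, the ATP-magnesium/phosphate carrier, rose by 0.79, beside the iron, glycine and glutathione carriers given above. The ADP/ATP translocases Slc25a5 (-0.35, SE 0.14) and Slc25a4 (-0.49, SE 0.20) were not called.

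Among the other metal carriers, Slc39a8 read 12 and 10.6 RPKM in CLP, 10.7 and 9.79 in ChILP, 0.857 and 0.854 in PD-1+ cells, and 6.96 and 1.94 in CCR6+ cells (log2 fold change -2.19, SE 0.40, edgeR adjusted p = 0.00822), with the first CCR6+ library nearest to the depleted pair. Slc30a5, which loads zinc into the secretory pathway, fell (-0.88, edgeR adjusted p = 0.0113), and Slc30a9 rose (1.0, edgeR adjusted p = 0.00756). The abundant zinc carrier Slc39a7 of the endoplasmic reticulum was not called (-0.18, SE 0.12), and neither was Slc39a1 (0.52, SE 0.17). Among carriers of inorganic ions, Slc20a1, a phosphate importer, rose by 0.80 and Slc24a6, a sodium/calcium exchanger, by 1.01. Slc26a1, an anion exchanger that overlaps Idua, had the largest difference without a call: it read 7.8 and 3.65 RPKM in CLP, 7.08 and 5.43 in ChILP, 0.064 and 0.993 in PD-1+ cells, and 2.26 and 0.766 in CCR6+ cells (log2 fold change -2.44, SE 0.78, edgeR adjusted p = 0.0582). It qualified as a member through ChILP alone. The sodium/proton exchanger Slc9a9 was not called (0.40), and the first PD-1+ library held 22.6 RPKM against 5.62 to 12.5 in the others.

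Nucleoside, vitamin and choline carriers gave 1 higher and 2 lower calls among 7, and nucleotide sugar or acetyl-CoA carriers 2 lower among 14. Of genes at the same level, 16.4% were called higher and 15.8% lower. Slc19a1 (NM_031196), the reduced folate carrier, read 50.1 and 56 RPKM in CLP, 47.2 and 59 in ChILP, 8.23 and 11.9 in PD-1+ cells, and 24.4 and 8.07 in CCR6+ cells (log2 fold change -1.77, SE 0.34, edgeR adjusted p = 0.00988). Slc29a1, an equilibrative nucleoside transporter, read 149.7 and 203 RPKM in CLP, 163 and 118 in ChILP, 67.2 and 71.5 in PD-1+ cells, and 98.5 and 70.9 in CCR6+ cells (log2 fold change -0.76, SE 0.18, edgeR adjusted p = 0.0199). In both, each captured library lay below each depleted library. Slc44a2, a choline transporter-like protein, rose by 0.82. Of 14 nucleotide sugar or acetyl-CoA carriers, Slc35d3 (-2.32, edgeR adjusted p = 0.00289) and Slc35a4 (-0.66, edgeR adjusted p = 0.0112) fell and none rose, with a class median of -0.41. Slc35d3 reached the level for membership only in the depleted pair. Slc35a4 overlaps Apbb3, and Slc35a1 was not called (-0.70).

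Organic ion carriers gave 1 call in each direction among 7, near the 16.4% higher and 15.8% lower of genes at the same level. Slc22a4, the ergothioneine carrier, rose (0.91) and Slc22a3 fell (-1.07, edgeR adjusted p = 0.0451). The call for Slc22a3, whose exons overlap those of Plg, was lost in each of the 8 fits that left out 1 library. This gene reached the level for membership only in the depleted pair. The urea carrier Slc14a1, known from red cells and kidney, had the highest mean of the class and was not called, at 49.9 and 46.1 RPKM in CLP, 46.3 and 41 in ChILP, 41.4 and 29.4 in PD-1+ cells, and 37.6 and 33.7 in CCR6+ cells (-0.10, SE 0.14). Of the members without an assigned function, Slc35e4 rose (2.48) and Slc7a4, which overlaps P2rx6, fell (-1.71). Slc35e4 qualified as a member through PD-1+ cells alone and Slc7a4 through CLP and ChILP alone, so the rule partly set these directions. The 4 non-transporters gave no call, and the scaffold Slc9a3r1 read 57.9 and 61.5 RPKM in CLP, 47.3 and 63.6 in ChILP, 85 and 52.1 in PD-1+ cells, and 55.9 and 58.9 in CCR6+ cells.

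**Figure D5:**
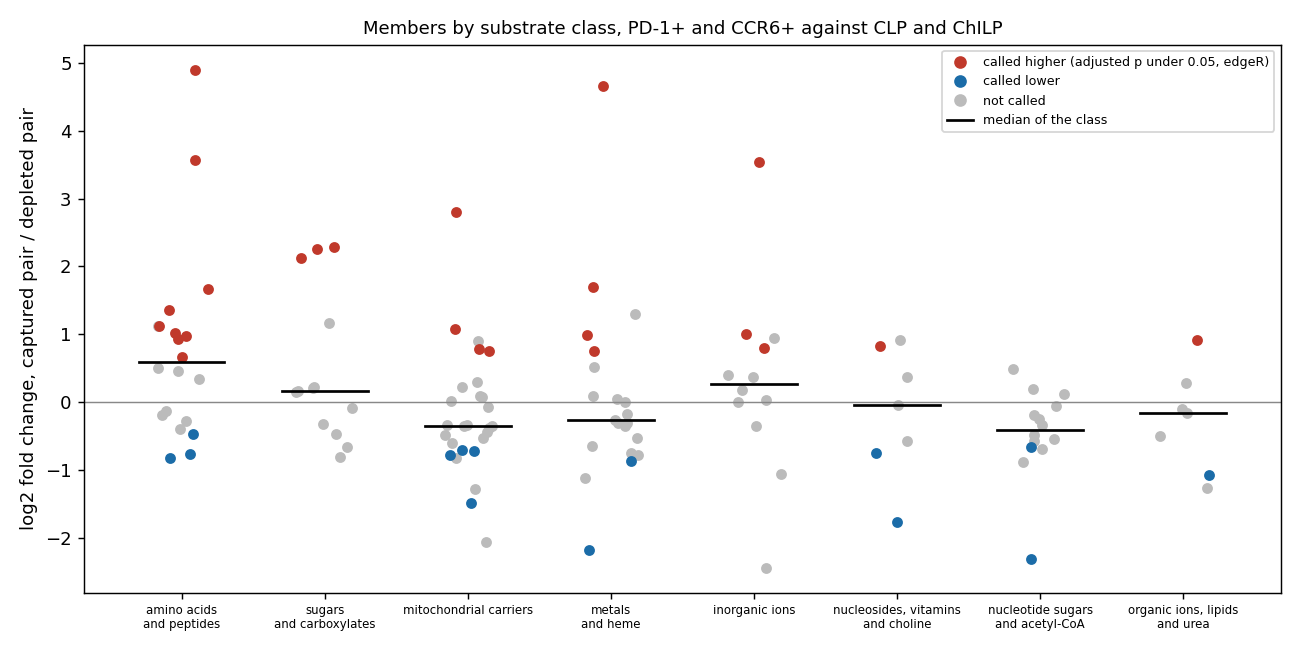
Log2 fold change of each member, captured pair over depleted pair, by substrate class (red, called higher; blue, called lower; grey, not called; bar, class median). Sideways position within a class has no meaning. Class medians run from -0.41 for nucleotide sugar carriers to 0.58 for amino acid carriers.

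Of the 41 calls, 25 held in all 8 fits that left out 1 library. The 16 others were Slc20a1, Slc22a3, Slc22a4, Slc24a6, Slc25a12, Slc25a17, Slc25a24, Slc25a38, Slc29a1, Slc35e4, Slc38a2, Slc3a2, Slc43a2, Slc44a2, Slc7a4 and Slc7a6. Leaving out CLP 1 or CLP 2 ended 10 and 15 calls, ChILP 1 or 2 ended 8 and 11, PD-1+ 1 or 2 ended 6 and 5, and CCR6+ 1 or 2 ended 9 and 10. The lost calls had edgeR adjusted p from 0.0507 to 0.166.

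Genes of the pathways that these carriers serve were taken as lists. In the comparisons of ChILP with CLP and of PD-1+ with CCR6+ cells, no gene of the 4 lists was called. Between the pairs, the list of iron uptake, storage and heme synthesis had 10 of 18 genes called higher and 3 lower, with a median of 0.90 against -0.08 over all genes tested. For this list and those that follow, the shares over all genes tested were 11.4% higher and 10.5% lower, and over genes at the same level 16.4% and 15.8%. Fech, ferrochelatase, rose by 2.2 and Hmox1, which degrades heme, by 2.89, while Alas1, the general first enzyme of heme synthesis, fell (-1.22) and Alas2, its red lineage form, rose (3.85). The list shares Alas2 with the red lineage list, whose summed level moved in the same direction. Of 18 glycolysis enzymes tested, 3 were called higher and 4 lower, near those shares, with Hk2 at 1.15 and Tpi1 at -0.90. Gapdh, which most cells transcribe abundantly and which has many near-identical copies, read between 1.5 and 3.07 RPKM. How shared reads were counted is not given in the sources used here, so the levels of such genes are uncertain. Of 22 genes of amino acid sensing and the ATF4 response, 2 rose and 3 fell: the serine and asparagine enzymes Phgdh (-1.84), Psat1 (-0.89) and Asns (-0.98) fell, Sesn2 (0.89) and Cebpb (2.16) rose, and Atf4 itself was not called (0.07). Of 18 chaperone subunits and other membrane carriers, 3 rose and 1 fell. Bsg, the chaperone of the lactate carriers, rose by 0.56, Rhag by 0.95 and Abcb10 by 1.19, and Mfsd10 fell (-0.83).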

How the data were processed

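Expression was measured in 8 libraries from 4 sorted populations, 2 each, grouped by the labels. Libraries of polyadenylated RNA were made with Smart-seq2, per the labels' protocols, a method that amplifies full-length transcripts from few cells, and read at 50 bases. Tools named in the submitters' processing notes are Bowtie2 2.2.2 and CASAVA 1.8.4, with the build mm9. Which program counted the reads, whether it used strand and how it treated reads shared between loci is not given in the sources used here. The authors deposited, per RefSeq transcript, a whole-number read count and an RPKM value, and the deposited RPKM values equal counts scaled by transcript length and a total per library.

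Each symbol was represented by its transcript with the largest mean count, and 40 members had more than 1. The members and lists were chosen with earlier results of these data known. Substrate classes follow family names and textbook knowledge. Slc4a1ap and Slc7a6os were set apart as non-transporters after the data had been seen. The test on counts was the robust quasi-likelihood test of edgeR 4.0.16 in R 4.3.3 (two-sided, TMM scaling, genes kept by filterByExpr at a count minimum of 10), with all 8 libraries in 1 fit, which left 4 residual degrees of freedom, and Benjamini-Hochberg adjustment over 13619 genes. The procedure was tested on simulated data before use. Named were the members called, up to 6 per direction with the largest fold change, a mean of at least 5 RPKM and no overlap of libraries, the 3 most abundant of each class and a list of well-known carriers. Members at an unadjusted p under 0.05 within a pair were added after their values were seen. Alternatives were DESeq2 1.42.0, its size factors, limma 3.58.1 on log2(RPKM + 1) and log2(RPKM + 0.1), no filter, a replicate block, the longest transcript, other limits for membership and leaving out each library. Exon overlaps were read from GENCODE M21 on GRCm38 for 129 members. There, 19 shared exon sequence with another gene of the tables, 7 of them called between the pairs. Amplified reads are not independent molecules.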

Additional observations from a re-analysis of the deposited data

How the results depend on the processing

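The count of members called between ChILP and CLP was 0, and 2 with the DESeq2 Wald test, 1 with limma on log2(RPKM + 1), 1 without the filter on low counts and 1 with only the 4 libraries compared. Between PD-1+ and CCR6+ cells it was 0, and 2 with the DESeq2 Wald test (1 higher, 1 lower). Leaving out each library in turn gave 0 for ChILP against CLP, 0 to 1 for PD-1+ against CCR6+ cells (1 without PD-1+ replicate 2) and 26 (without CLP replicate 2) to 46 (without PD-1+ replicate 1) for the captured against the depleted pair, from 41. The lone library then left in a population is assumed to vary like the others. The split of higher and lower calls between the pairs was 26 and 15, 29 and 11 with DESeq2 size factors, and 20 and 35 with limma on log2(RPKM + 0.1). Of the fold changes of named genes recomputed under the alternatives, 1 changed direction: Slc27a1 between PD-1+ and CCR6+ cells was at -0.16 without PD-1+ replicate 1 and at 2.68 without PD-1+ replicate 2 (all libraries, 1.87). With the replicate block the counts were 0, 0 and 38. Samples with the same number deviated together only weakly (r = 0.09 for CLP with ChILP, 0.08 for PD-1+ with CCR6+ cells), so the numbers were not taken as pairs. A limit of 2 RPKM gave 173 members and 41 calls between the pairs, 10 RPKM gave 85 and 34, and a mean of at least 5 RPKM over all libraries gave 113 and 38. With a common biological coefficient of variation of 0.526 over all genes and 2 libraries per population, many small differences can be missed. Between the pairs, a log2 fold change as small as -0.47 (Slc38a2) was called.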
